A study of Mus musculus with 2 samples.

Results

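The Rab genes encode the largest branch of the Ras-related small GTPases. Their members were taken as the genes whose symbol is Rab followed by a number and at most 1 letter, among probe sets annotated to a single gene. This rule found 59 genes with 132 probe sets, of 18193 genes in all, and used no measured value. Each gene was represented by its probe set with the highest geometric mean of both arrays. The data were 2 Affymetrix arrays of mouse liver, 1 per group. The first group received antagomir-122, a cholesterol-linked, chemically modified oligonucleotide complementary to miR-122, a microRNA abundant in hepatocytes. The second received mm-antagomir-122, which the labels call scrambled. Both groups were given 80 mg/kg per day on 3 days, the livers were taken 24 h after the last injection, and RNA of 3 livers was pooled for each array. The labels give no strain, sex or age.

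Rab proteins act as membrane switches. In the GTP-bound form each Rab marks a particular compartment and recruits effectors that move, tether or fuse vesicles; exchange factors (GEFs) load GTP and GTPase-activating proteins (GAPs) end the active state. GDP dissociation inhibitors and escort proteins carry the lipid-modified Rabs through the cytosol. Hepatocytes use these routes to export plasma proteins and lipoproteins, to take up ligands by endocytosis and to carry cargo across the cell to the bile canaliculus. The question examined was how transcripts of secretory, endosomal and recycling Rabs compare between the antagomir-122 pool and the mm-antagomir-122 pool.

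Values are MAS5 signals, which are linear intensities. A ratio is log2 of the antagomir-122 signal over the mm-antagomir-122 signal, so a positive ratio is higher with antagomir-122. A floor was set at the 60th percentile of mean log2 signal, a signal of 238.2, because no detection calls were used and dim signals cannot be told from background. Of the 59 Rab genes, 41 lay above it. Rab15 was just inside, at 333 in the antagomir-122 pool and 303 in the mm-antagomir-122 pool, and Rab2b was just outside, at 253 in the antagomir-122 pool and 210 in the mm-antagomir-122 pool. With 1 array per group there is no replicate error, and no test between the groups and no p-value can be given. The available yardstick is the disagreement between the 2 brightest probe sets of the same gene. It was taken as the SD of the difference between their log2 ratios, divided by the square root of 2. This probe-set SD was 0.28 over 3860 genes and 0.19 over the 21 Rab genes that had such a pair. The value over all genes is used below unless stated. This yardstick leaves out the spread between animals. Signals of different genes come from different probes and are not compared as levels. In pooled tissue, fewer cells of a type and less RNA per cell cannot be told apart.

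Rab transcripts were nearly level between the pools. None of the 41 Rab genes was at least 1.5-fold higher with antagomir-122, where 5.12% of all 10003 genes above the floor were. Rab23 alone was at least 1.5-fold lower, where 2.62% of all genes were. That 1 gene is 2.44% of the Rabs, which is near the background. A total of 34 Rab genes (82.9%) lay within 1.25-fold, against 71.5% of all genes. Among genes with a geometric mean signal of at least 1000, the share within 1.25-fold was 82.6% for 23 Rabs and 80.1% for 4143 genes. Among dimmer genes it was 83.3% for 18 Rabs and 65.4% for 5860 genes.

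The median log2 ratio of the 41 Rab genes was -0.05, against 0.00 for all genes. The ratio was below 0 for 27 Rabs (65.9%), against 49.6% of all genes. It was below 0 for 24 of 41 Rabs with quantile normalization, against 50.3% of all genes. With loess correction, which removes a trend with signal, it was below 0 for 23 of 41 (56.1%), against 49.6%. As deposited, among genes with a geometric mean signal of at least 1000, 65.2% of Rabs and 57.7% of all genes lay below 0. Among dimmer genes these shares were 66.7% and 43.9%. When the arrays were scaled on the spiked hybridization controls, whose median log2 ratio was -0.27, every ratio shifted up. Then 5 of 41 Rabs (12.2%) lay below 0, against 15.9% of all genes. On that scale 6 Rabs (14.6%) were at least 1.5-fold higher, against 16.9% of all genes, and 0 were 1.5-fold lower, against 0.63%. Directions are therefore relative to the bulk of genes.

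**Figure D1:**
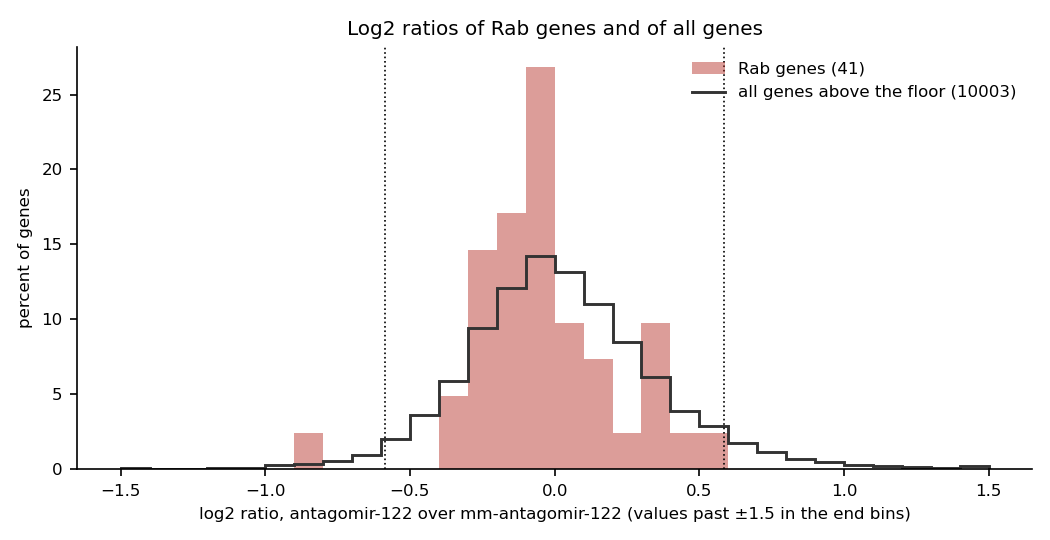
Share of genes (percent, vertical axis) in bins of the log2 ratio of antagomir-122 over mm-antagomir-122 (horizontal axis), for 41 Rab genes (filled) and 10003 genes above the floor (outline); dotted lines mark 1.5-fold. The Rab genes gather around a median of -0.05, with Rab23 as the only one past a dotted line; the bin of Rab30, at 0.51, straddles the other line.

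The secretory Rabs of the early pathway were close to level between the pools. Of 10 such genes, 7 were above the floor, with a median log2 ratio of -0.06. Of these 7, 6 (85.7%) lay within 1.25-fold, against 71.5% of all genes. Rab1a, which directs vesicles from the endoplasmic reticulum to the Golgi, had a signal of 10322 in the antagomir-122 pool and 10761 in the mm-antagomir-122 pool (log2 ratio -0.06). Its close paralogue Rab1b had 2630 in the antagomir-122 pool and 2842 in the mm-antagomir-122 pool (-0.11). Both Rab1 genes thus differed by less than the spread between probe sets of a gene.

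Rab2a, which acts between the endoplasmic reticulum and the Golgi, had 4892 in the antagomir-122 pool and 4749 in the mm-antagomir-122 pool (log2 ratio 0.04). Rab6a, a Golgi Rab, had 1978 in the antagomir-122 pool and 2085 in the mm-antagomir-122 pool (-0.08), and all 3 of its probe sets were below 0. Rab43, another Golgi Rab, had 3500 in the antagomir-122 pool and 3576 in the mm-antagomir-122 pool (-0.03). Rab33b, which links the Golgi to autophagosome formation, was dimmer, at 437 in the antagomir-122 pool and 490 in the mm-antagomir-122 pool (-0.16). Each of these 4 genes was within 1.25-fold.

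Rab30, a Golgi Rab, had the highest ratio of all Rabs above the floor. Its signal was 476 in the antagomir-122 pool and 334 in the mm-antagomir-122 pool, which is 1.42-fold higher (log2 ratio 0.51). A single probe set was above the floor; the second had 131 in the antagomir-122 pool and 108 in the mm-antagomir-122 pool, both under the floor. The difference is larger than the probe-set SD and short of 1.5-fold. Rab30 was the 1 Rab of 41 at least 1.4-fold higher, where 8.16% of all genes were.

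**Figure D2:**
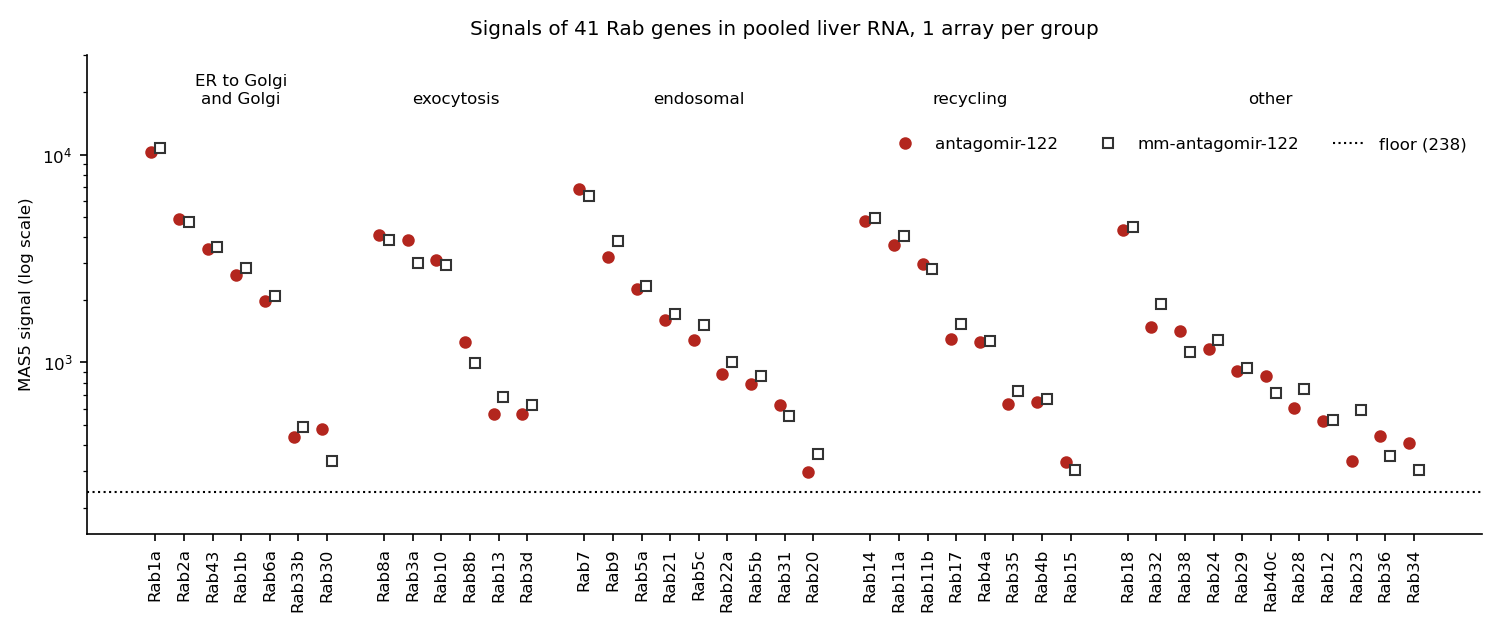
MAS5 signal (log axis) of the brightest probe set of each of 41 Rab genes in the antagomir-122 pool (filled circles) and the mm-antagomir-122 pool (open squares), grouped by role, with the floor of 238.2 dotted. Most pairs nearly coincide; Rab23, at 334 with antagomir-122 and 592 with mm-antagomir-122, and Rab30, at 476 with antagomir-122 and 334 with mm-antagomir-122, are the widest apart.

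The Rabs of exocytosis had a median above 0, by less than the probe-set SD. Of 12 genes, 6 were above the floor, with a median log2 ratio of 0.08. Of these 6, 4 lay above 0 and 2 (33.3%) below 0, where 49.6% of all genes lay below 0. Within 1.25-fold were 4 of the 6 (66.7%), against 71.5% of all genes. Rab8a, which carries cargo from the Golgi to the plasma membrane, had 4111 in the antagomir-122 pool and 3895 in the mm-antagomir-122 pool (0.08). Rab10, known for moving glucose transporter vesicles to the cell surface in adipocytes, had 3097 in the antagomir-122 pool and 2935 in the mm-antagomir-122 pool (0.08). These 2 bright members were nearly level.

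Rab8b, the paralogue of Rab8a, was 1.27-fold higher, at 1258 in the antagomir-122 pool and 992 in the mm-antagomir-122 pool (log2 ratio 0.34). Rab3a, best known for synaptic vesicle release in neurons, was read on its brighter probe set, at 3874 in the antagomir-122 pool and 3015 in the mm-antagomir-122 pool, 1.28-fold higher. This probe set has the suffix _x and can cross-hybridise. The other Rab3a probe set, without a suffix, had 63.9 in the antagomir-122 pool and 248 in the mm-antagomir-122 pool. Its mean signal is under the floor, so the Rab3a value rests on the cross-hybridising probe set alone and is uncertain.

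Rab13, which acts at tight junctions, had 562 in the antagomir-122 pool and 681 in the mm-antagomir-122 pool (log2 ratio -0.28). Rab3d, a Rab of secretory granules, also had 562 in the antagomir-122 pool and 622 in the mm-antagomir-122 pool (-0.15), and its other probe sets above the floor reached 0.27. Taking both secretory groups, 13 genes had a median of -0.03 as deposited. That median turned to 0.02 with quantile normalization and with loess correction, to 0.03 with the mean over probe sets and to 0.24 when scaled on the hybridization controls. As deposited, 0 of these 13 genes were past 1.5-fold upwards, against 5.12% of all genes, and 0 downwards, against 2.62%. Scaled on the hybridization controls, Rab30 (0.78), Rab3a (0.64) and Rab8b (0.62) were past it, against 16.9% of all genes.

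Endosomal Rabs were the group with the lowest median. Of 11 genes, 9 were above the floor, with a median log2 ratio of -0.12, and 7 of the 9 (77.8%) were below 0, against 49.6% of all genes. All 9 lay within 1.25-fold as deposited, against 71.5% of all genes. The median was -0.14 with quantile normalization and loess correction, and 0.15 when scaled on the hybridization controls.

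The 3 paralogues of Rab5, the organiser of early endosomes, all had ratios below 0 as deposited. Rab5a had 2261 in the antagomir-122 pool and 2327 in the mm-antagomir-122 pool (log2 ratio -0.04). Rab5b had 789 in the antagomir-122 pool and 860.0 in the mm-antagomir-122 pool (-0.12), and Rab5c had 1276 in the antagomir-122 pool and 1514 in the mm-antagomir-122 pool (-0.25). Each difference was under the probe-set SD of all genes, while that of Rab5c was past the 0.19 of the Rab pairs. Each gene rested on 1 probe set above the floor.

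Rab9, which returns receptors from late endosomes to the Golgi, had 3216 in the antagomir-122 pool and 3818 in the mm-antagomir-122 pool, or 1.19-fold lower. Rab7, which controls traffic to late endosomes and lysosomes, had 6804 in the antagomir-122 pool and 6305 in the mm-antagomir-122 pool (log2 ratio 0.11). Its second bright probe set had 3106 in the antagomir-122 pool and 4250 in the mm-antagomir-122 pool (-0.45). The probe sets of Rab7 therefore point in opposite directions, with a mean of -0.17.

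Rab21, a Rab of integrin traffic, had 1606 in the antagomir-122 pool and 1718 in the mm-antagomir-122 pool (log2 ratio -0.10). Rab22a, of early and sorting endosomes, had 881 in the antagomir-122 pool and 1004 in the mm-antagomir-122 pool (-0.19). Both had a dimmer probe set above the floor that went the other way, at 0.36 for Rab21 and 0.42 for Rab22a. Rab20, which takes part in phagosome maturation, had 297 in the antagomir-122 pool and 362 in the mm-antagomir-122 pool (-0.28). Rab31, which acts between the Golgi and endosomes, had 625 in the antagomir-122 pool and 554 in the mm-antagomir-122 pool (0.18), and its second probe set had 0.20.

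Recycling Rabs had a median of -0.05, and the 8 of 9 genes that passed the floor all lay within 1.25-fold, against 71.5% of all genes. Rab11a, of the recycling endosome, had 3677 in the antagomir-122 pool and 4063 in the mm-antagomir-122 pool (log2 ratio -0.14). Its paralogue Rab11b had 2972 in the antagomir-122 pool and 2823 in the mm-antagomir-122 pool (0.07). Rab14, which acts between the Golgi and endosomes, had 4772 in the antagomir-122 pool and 4925 in the mm-antagomir-122 pool (-0.05). Rab11a has a second probe set above the floor, without a suffix, at 547 in the antagomir-122 pool and 531 in the mm-antagomir-122 pool (0.04), so its sign depends on the probe set. The ratios of both Rab11 paralogues were smaller than the probe-set SD.

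Rab4a, a Rab of fast recycling to the plasma membrane, had 1248 in the antagomir-122 pool and 1265 in the mm-antagomir-122 pool on its brightest probe set (log2 ratio -0.02). That probe set has the suffix _s and can match more than 1 gene. The probe set without a suffix had 604 in the antagomir-122 pool and 879 in the mm-antagomir-122 pool, or 1.45-fold lower. Rab4b had 644 in the antagomir-122 pool and 664 in the mm-antagomir-122 pool (-0.05). The value of Rab4a thus depends on which of its probe sets is read.

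Rab17, an epithelial Rab of transcytosis, had 1289 in the antagomir-122 pool and 1537 in the mm-antagomir-122 pool, or 1.19-fold lower, and both of its probe sets were below 0. Rab35, which returns cargo from endosomes to the plasma membrane, had 631 in the antagomir-122 pool and 729 in the mm-antagomir-122 pool (log2 ratio -0.21). Rab15, known for endocytic recycling of receptors, had 333 in the antagomir-122 pool and 303 in the mm-antagomir-122 pool (0.13). The medians of the secretory, endosomal and recycling groups were -0.03, -0.12 and -0.05. No test between these roles was run, because the genes of 1 array are not replicates.

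**Figure D3:**
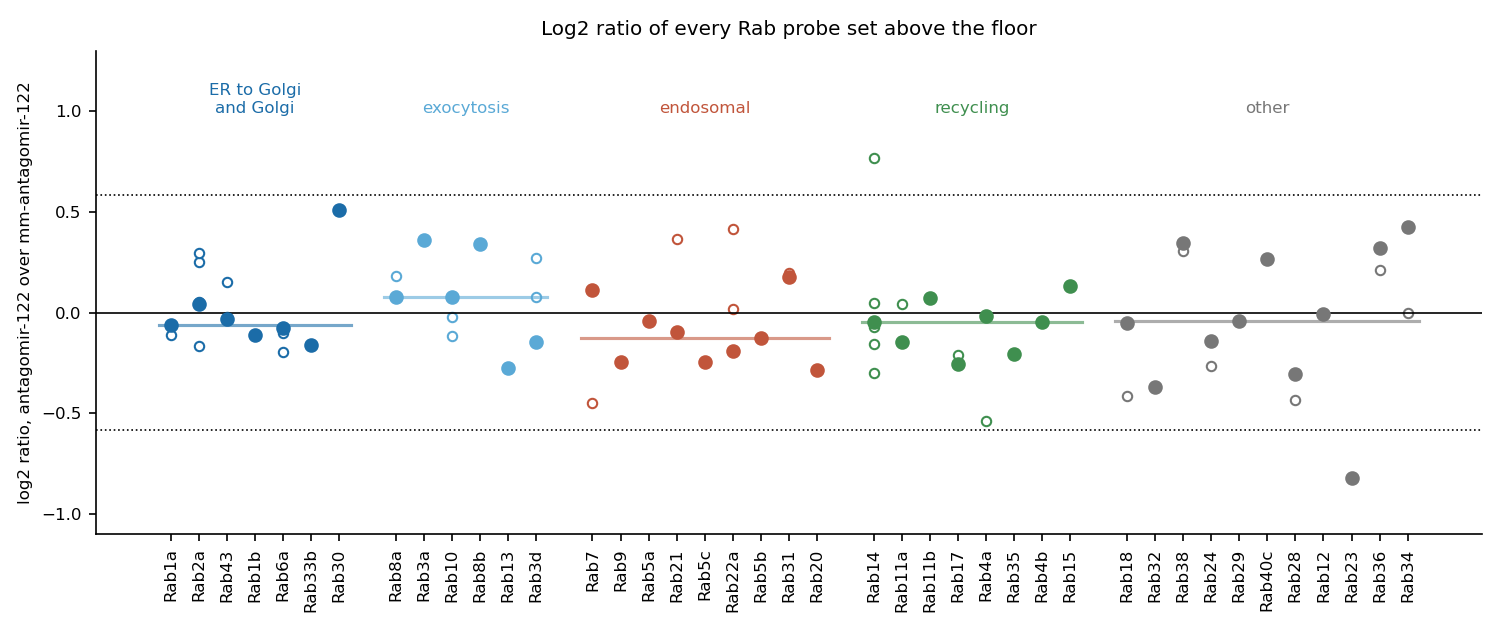
Log2 ratio of antagomir-122 over mm-antagomir-122 for every Rab probe set above the floor, with the brightest of each gene filled, the others open and the median of each role as a line; dotted lines mark 1.5-fold. Filled points stay inside the dotted lines except Rab23. Open points of Rab14, Rab22a, Rab7 and Rab4a are among those far from the filled ones. The open Rab14 point at 0.77 is past the upper dotted line.

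The Rabs outside these 3 roles included Rab23, the only Rab past 1.5-fold. Of 17 genes, 11 were above the floor, with a median log2 ratio of -0.04. Of these 11, 7 (63.6%) lay within 1.25-fold, against 71.5% of all genes. Rab23, a Rab of the primary cilium that restrains Hedgehog signalling, was 1.77-fold lower, at 334 in the antagomir-122 pool and 592 in the mm-antagomir-122 pool (log2 ratio -0.82). A second probe set, under the floor, was also lower, at 103 in the antagomir-122 pool and 203 in the mm-antagomir-122 pool. The third went the other way, at 95.8 in the antagomir-122 pool and 53.7 in the mm-antagomir-122 pool, both dim. Rab23 was past 1.5-fold with median centring, quantile normalization and loess correction, but at -0.55 it was not when scaled on the hybridization controls. Its probe set above the floor has the suffix _a, and no Rab23 probe set without a suffix was above the floor.

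Rab32 and Rab38, paralogues that build lysosome-related organelles such as melanosomes, went opposite ways. Rab32 had 1476 in the antagomir-122 pool and 1907 in the mm-antagomir-122 pool, or 1.29-fold lower (log2 ratio -0.37). Rab38 had 1420 in the antagomir-122 pool and 1117 in the mm-antagomir-122 pool, or 1.27-fold higher, but that probe set has the suffix _x. Its second probe set, without a suffix, had 369 in the antagomir-122 pool and 299 in the mm-antagomir-122 pool (0.30). Both genes differ by more than the probe-set SD as deposited. Scaled on the hybridization controls, Rab32 came to -0.10 and Rab38 to 0.62, which is past 1.5-fold.

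Rab18, associated with lipid droplets and the endoplasmic reticulum, had 4351 in the antagomir-122 pool and 4505 in the mm-antagomir-122 pool on its brightest probe set (log2 ratio -0.05). Its second had 1559 in the antagomir-122 pool and 2081 in the mm-antagomir-122 pool (-0.42), so that both were below 0 by different amounts. Rab28, a Rab of photoreceptor cilia, had 602 in the antagomir-122 pool and 745 in the mm-antagomir-122 pool (-0.31), and its second probe set had -0.43. Rab24, linked to autophagy, had 1160.3 in the antagomir-122 pool and 1282 in the mm-antagomir-122 pool (-0.14), and its second had -0.27. In these 3 genes every probe set above the floor was below 0 as deposited.

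Rab34, which acts in ciliogenesis and lysosome positioning, had 410 in the antagomir-122 pool and 305 in the mm-antagomir-122 pool, or 1.34-fold higher. Its second probe set was level, at 329.7 in the antagomir-122 pool and 330.6 in the mm-antagomir-122 pool. Rab36, a relative of Rab34, had 442 in the antagomir-122 pool and 354 in the mm-antagomir-122 pool (log2 ratio 0.32), and its second had 0.21. Rab40c, which carries a SOCS box and joins ubiquitin ligases, had 858 in the antagomir-122 pool and 714 in the mm-antagomir-122 pool (0.26). Rab29, a partner of the kinase LRRK2, and Rab12, which acts in lysosomal delivery of the transferrin receptor, had ratios of -0.04 and -0.01. These last 2 genes were level.

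Counted against the probe-set SD of 0.28, 6 of the 41 Rabs (14.6%) were higher by more than it, against 19.5% of all genes. They were Rab30, Rab34, Rab3a, Rab38, Rab8b and Rab36. Another 4 (9.76%) were lower by more than it, namely Rab23, Rab32, Rab28 and Rab20, against 15.6% of all genes. Both shares of the Rabs were below those of all genes, without matching for signal. At geometric mean signals of at least 1000, 13.0% of Rabs were higher, against 11.6% of all genes, and 4.35% lower, against 14.6%. Among dimmer genes 16.7% of Rabs were higher, against 25.1%, and 16.7% lower, against 16.4%. Of the 21 Rabs with several probe sets above the floor, 11 had the same sign on all of them and 10 did not. The probe sets of Rab14 spread widest, over 6 above the floor, from -0.30 to 0.77. The highest of these had 340.0 in the antagomir-122 pool and 199.9 in the mm-antagomir-122 pool, at least 1.43-fold higher when taken against the floor.

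The 18 Rabs under the floor had signals between 5.4 and 253 on their brightest probe sets. They were Rab2b, Rab6b and Rab33a of the Golgi group and Rab3b, Rab3c, Rab26, Rab27a, Rab27b and Rab37 of the exocytosis group. The rest were Rab7b and Rab9b of the endosomal group, Rab25 of the recycling group, and Rab19, Rab39, Rab39b, Rab40b, Rab42 and Rab44. Several are known from neurons, blood cells or secretory epithelia, such as Rab3b and Rab3c, Rab27a and Rab37, and Rab25. As deposited, 5 of the 18 passed 1.5-fold upwards and 3 downwards. With no floor 15.2% of all 18193 genes were higher and 9.42% lower. These shares include the 10003 genes above the floor, of which 5.12% were higher and 2.62% lower. The shares among genes under the floor alone are therefore larger than 15.2% and 9.42%. With both signals raised to the floor, 0 of the 18 reached 1.5-fold, so no fold is given.

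The arrays were checked against cell type markers. The 8 hepatocyte markers had signals of at least 7418 in the antagomir-122 pool and 7801 in the mm-antagomir-122 pool, as the liver label implies, and summed to 129925 in the antagomir-122 pool and 133071 in the mm-antagomir-122 pool. Most leukocyte markers had higher signals with antagomir-122. Of 28 markers of neutrophils, macrophages and lymphocytes, 24 were above the floor, and 23 of these had ratios above 0, with a median log2 ratio of 0.46, while 49.6% of all genes lay below 0. Of the 24, 9 (37.5%) passed 1.5-fold upwards and 0 downwards, against 5.12% and 2.62% of all genes. The median was 1.28 for neutrophil, 0.40 for macrophage and 0.51 for lymphocyte markers, and Elane, a neutrophil granule gene, had -0.31. Their signals summed to 113083 in the antagomir-122 pool and 85174 in the mm-antagomir-122 pool, and no marker was listed at 0. Of these sums, Lcn2 alone, on the neutrophil list, gave 27382.5 in the antagomir-122 pool and 24173 in the mm-antagomir-122 pool (log2 ratio 0.18). The median was 0.04 for 8 endothelial markers and 0.30 for 5 stellate markers, and 1 of 5 cholangiocyte markers was above the floor by its mean of both arrays. Epcam, a cholangiocyte marker under it, had 37.1 in the antagomir-122 pool and 834 in the mm-antagomir-122 pool, at least 3.50-fold lower against the floor, on a probe set with the suffix _x. S100a8, the neutrophil calprotectin gene, had 3442 in the antagomir-122 pool and 739 in the mm-antagomir-122 pool. Of 8 Rabs known for roles in leukocytes, 4 were above the floor. Rab8b and Rab31 had ratios above 0 and Rab20 and Rab32 below 0, with a median of -0.06. Without these 4 the median of the other 37 Rabs was -0.05, as with them. The part of leukocyte RNA in single Rab values was not tested.

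Genes for the proteins that serve the whole Rab family were close to level on their brightest probe sets. Of 8 genes for GDP dissociation inhibition, escort and prenylation, 6 were above the floor. All 6 lay within 1.25-fold, against 71.5% of all genes. Gdi2, a GDP dissociation inhibitor, had 10033 in the antagomir-122 pool and 9415 in the mm-antagomir-122 pool (log2 ratio 0.09). That is the brightest of its 6 probe sets above the floor, and the others ran from -0.36 to 0.26. Rabggta and Rabggtb, the subunits of the enzyme that attaches the lipid anchor, had log2 ratios of -0.08 and -0.01. Chm, the escort protein gene, had -0.25 on its brightest probe set and 0.28 on the other.

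Across all regulators and effectors on the list, 112 genes were above the floor, with a median log2 ratio of 0.06. Of these, 6 passed 1.5-fold upwards (5.36%, against 5.12% of all genes) and 3 passed it downwards (2.68%, against 2.62%). Both shares are near the background. Among 41 exchange factors, 3 were higher (7.32%, against 5.12% of all genes) and 1 lower (2.44%, against 2.62%). Dennd1b, an exchange factor for Rab35, was 1.89-fold higher, at 1234 in the antagomir-122 pool and 653 in the mm-antagomir-122 pool. Trappc9, of the TRAPP complex that activates Golgi Rabs, was 1.75-fold higher, at 727 in the antagomir-122 pool and 415 in the mm-antagomir-122 pool. Hps4, which with Hps1 activates Rab32 and Rab38, was 1.60-fold higher, at 1000 in the antagomir-122 pool and 624 in the mm-antagomir-122 pool. Hps1 had a log2 ratio of 0.37 on its brightest probe set, which can cross-hybridise, and -0.36 on the other. Trappc13, another TRAPP subunit, was 1.71-fold lower, at 330.0 in the antagomir-122 pool and 566 in the mm-antagomir-122 pool. Its other probe sets had -0.75 and 0.15.

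Among 32 GAPs, 2 were higher (6.25%, against 5.12% of all genes) and 2 lower (6.25%, against 2.62%). Rabgap1l was 2.09-fold higher, at 1602 in the antagomir-122 pool and 767 in the mm-antagomir-122 pool, while its second probe set had a log2 ratio of 0.08. Tbc1d10c, a lymphocyte GAP, had 314 in the antagomir-122 pool and 204 in the mm-antagomir-122 pool, at least 1.32-fold higher against the floor. Tbc1d15, a GAP for Rab7, was 1.51-fold lower, at 1470 in the antagomir-122 pool and 2226 in the mm-antagomir-122 pool, and its other probe sets had -0.25 and -0.63. Tbc1d17 was 1.58-fold lower, at 527 in the antagomir-122 pool and 833 in the mm-antagomir-122 pool. All 3 probe sets of Tbc1d15 above the floor were below 0, and both of Rabgap1l were above 0 by unequal amounts.

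Of 33 effectors, 1 was past 1.5-fold upwards (3.03%, against 5.12% of all genes) and 0 downwards, against 2.62%. Unc13d, the Rab27 effector of leukocyte granule release, had 372 in the antagomir-122 pool and 216 in the mm-antagomir-122 pool, at least 1.56-fold higher against the floor. This value stands beside the leukocyte marker median of 0.46, and the part of leukocyte RNA in it was not tested. Rab11fip1, Rab11fip2, Rab11fip4 and Rab11fip5, which bind Rab11, had log2 ratios between -0.16 and 0.29 on their brightest probe sets. The early endosome tether Eea1 and the Rab5 effector Rabep1 had 0.05 and -0.02. Another probe set of Rab11fip4 above the floor had -0.31.

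**Figure D4:**
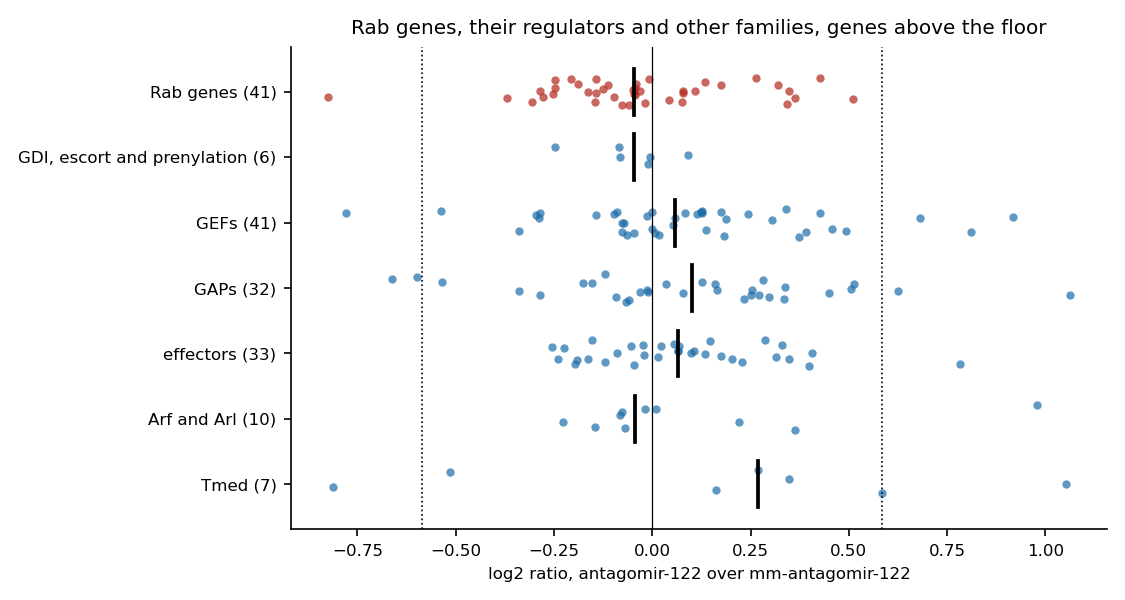
Log2 ratio of antagomir-122 over mm-antagomir-122 for genes above the floor (points, spread vertically for sight only) in the Rab family, 4 groups of Rab handling genes and 2 other families, with the number of genes in brackets, medians as bars and 1.5-fold as dotted lines. The Rab genes (median -0.05) lie between -0.82 and 0.51, while exchange factors and GAPs hold points past both dotted lines.

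The Arf and Arl genes, another branch of small GTPases in vesicle traffic, were also centred near 0. The median log2 ratio of 10 such genes was -0.04, with an SD of 0.36. With quantile normalization and loess correction this median turned to 0.02. Of the 10, Arl2, which acts in tubulin folding and ciliary traffic, was 1.97-fold higher, at 1106 in the antagomir-122 pool and 561 in the mm-antagomir-122 pool. That is 1 gene past 1.5-fold upwards and 0 downwards, against 5.12% and 2.62% of all genes. The Tmed cargo receptors, which share the early secretory route with Rab1 and Rab2, spread more widely. Their SD was 0.64 over 7 genes, against 0.25 over the 41 Rabs, with 2 genes past 1.5-fold upwards and 1 downwards, against 5.12% and 2.62% of all genes. Tmed3 had 2167 in the antagomir-122 pool and 1046 in the mm-antagomir-122 pool. The difference between these families was not tested.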

How the data were processed

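Liver RNA was measured on single-colour arrays, 1 per group, each with a pool of 3 livers. The authors deposited 1 linear intensity per probe set, computed with MAS5 per the submitters' processing notes. The 2% trimmed mean was 500.0 on both arrays, which shows a common scaling. Gene names came from the platform annotation, which can be old, and were matched on gene ID to the RefSeq genes of GRCm38.p6. The RefSeq table held 34741 of the 34945 single-gene probe sets and changed 0 symbols. Coordinates are left out, since no build is named.

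Ratios were taken as deposited, with no pseudocount, in Python 3.11.15. Each gene was read on its brightest probe set, and a gene was kept above the floor if that probe set reached it. The calculation was tested on simulated data. With 1 array per group no test between groups was possible, and the number of arrays limits the precision. Every Rab above the floor is named, and of each regulator list the members past 1.5-fold. Other regulators, markers, Arl2 and Tmed3 were named after their values were seen. The Rab genes, role groups and lists were chosen with earlier results of these data known. The Tmed family was added after the data were seen. Alternatives were other scalings (median centring, quantile, loess with a span of 0.3, hybridization controls), floors at the 40th and 80th percentiles, signals raised to the floor, a pseudocount (37.8), averaging the probe sets of a gene, omitting suffixed probe sets, and thresholds of 1.4-fold and 2-fold. Leaving out leukocyte-associated Rabs and using no floor were added after seeing the data. Planned printing of protein sequences was dropped, because no protein table was used here.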

Additional observations from a re-analysis of the deposited data

How the results depend on the processing

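No paired analysis was possible because each group has 1 array, and no replicate could be left out. Over the alternatives the median log2 ratio ran from -0.10 to 0.23 for all Rabs, from -0.09 to 0.24 for secretory, from -0.18 to 0.15 for endosomal and from -0.10 to 0.23 for recycling Rabs. The lowest came with median centring and the highest with scaling on the hybridization controls, which shift every gene alike. The ratio of Rab23, where it could be computed, stayed below 0. Each such setting read the same probe set, with the suffix _a, so this does not bear on the other Rab23 probe sets. Single Rabs that moved by more than the probe-set SD of 0.28 were Rab4a (-0.54), Rab18 (-0.42) and Rab34 (0.00) with suffixed probe sets left out, and Rab7 (-0.17) with the mean over probe sets. Of 41 Rabs, 0 were 1.5-fold higher as deposited, against 5.12% of all genes, and 6 when scaled on the hybridization controls, against 16.9%. With no floor 5 of 59 were, against 15.2%, and with the floor at the 40th percentile 2 of 48. At 1.4-fold 1 of 41 was higher, against 8.16%. The 1 Rab that was 1.5-fold lower, Rab23, was lost (0 Rabs) with the floor at the 80th percentile or suffixed probe sets left out. Rab23 was also lost with a 2-fold threshold or scaling on the hybridization controls, where 0.63% of all genes were lower. With no floor 4 of 59 Rabs were lower, against 9.42% of all genes. Of 112 regulators, 6 were higher as deposited, against 5.12% of all genes, and 1 at 2-fold. When scaled on the hybridization controls 22 of 112 were higher, against 16.9%. With no floor 15 of 138 were higher, against 15.2%, with the floor at the 40th percentile 10 of 126 and at the 80th 3 of 62. Those lower were 3 of 112 as deposited, against 2.62% of all genes, and 5 of 112 with median centring or at 1.4-fold. With no floor 5 of 138 were lower, against 9.42%. The count was 1 of 62 with the floor at the 80th percentile and 1 of 112 with the mean over probe sets. At 2-fold 0 were lower, and 0 when scaled on the hybridization controls, against 0.63%. Settings without a share of all genes beside them give counts only. The floor and thresholds change these counts by their own construction, and the hybridization controls by adding 0.27 to every ratio. Dim signal also limits the reading: 18 of 59 Rabs were not above the floor.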
